A study of Mus musculus with 3 samples.

Results

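MicroRNA gene rows with counts were described in RNA-seq libraries of mouse bone marrow pre-B cells. Rows were chosen by name and by their summed counts: the Entrez identifier had to map to a symbol that starts with Mir and a digit, or with Mirlet7, host genes left out, and the 3 libraries together had to hold at least 10 counts. This rule found 25 rows among 417 microRNA gene rows and 26286 rows in all. The summed count of a row chose it, so the levels below are a description and carry no test.

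All 3 libraries belong to one group and are called replicates 1, 2 and 3. The donors were CAG-rtTA3;TRE-GFP-shLuc.1309 bitransgenic mice, in which the CAG promoter drives a doxycycline-responsive transactivator and the TRE cassette carries GFP linked to a control short hairpin RNA. All received doxycycline (Dox) for 3 days. The sort gate was GFP+B220+CD25+ without surface IgM or Kit. Every library therefore carries the induced control hairpin, and no library without it was analysed here. Nothing in the labels ties a library to an animal of its own. The p-values below therefore concern differences between these samples, which may be technical in part. The tests set these against counting noise, against genes of like abundance or, for replicate 3, against the spread between replicates 1 and 2, moderated over genes. Xist, given below, differed widely between replicate 1 and the others.

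A microRNA is cut from a hairpin in a longer primary transcript by Drosha with Dgcr8, carried out of the nucleus by Xpo5 and cut again by Dicer1. An Argonaute protein then holds 1 strand and pairs its seed, the bases near the 5′ end, with target messenger RNA. Many hairpins lie in introns or exons of other genes, so reads over a microRNA row may come from the host transcript as well as from the hairpin. Short hairpin RNAs share steps of this route. Mature microRNAs control several steps of B cell development, and Dicer1 is known to be needed for the step from pro-B to pre-B cells.

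The mature sequences of the rows that the results turn on are shown first, since the row name alone does not tell which small RNA it would yield. RefSeq sequences on GRCm38.p6 were matched by symbol for 22 of the 25 rows, and Mir133a-2, Mir684-1 and Mir684-2 are named only. Each runs 5′ to 3′ with bases 2 to 8, the seed, in capitals.
miR-682: cUGCAGUCacagugaagucug
miR-703: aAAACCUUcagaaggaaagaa
miR-142a-5p: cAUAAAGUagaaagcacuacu
miR-142a-3p: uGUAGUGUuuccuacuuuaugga
miR-877-5p: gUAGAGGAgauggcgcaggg
miR-877-3p: uGUCCUCUucucccuccuccca
miR-343: uCUCCCUUcaugugcccaga
miR-7a-5p: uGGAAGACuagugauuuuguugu
miR-186-5p: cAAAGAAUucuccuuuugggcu
miR-425-5p: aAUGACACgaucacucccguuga
miR-25-3p: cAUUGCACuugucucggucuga
miR-92a-3p: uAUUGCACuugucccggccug
miR-93-5p: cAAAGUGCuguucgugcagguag
miR-421-5p: cUCAUUAAauguuuguugaau
miR-568: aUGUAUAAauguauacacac
The 2 mature strands of Mir142 lie at chr11:87756867-87756887 and chr11:87756903-87756925 on the plus strand. MiR-25-3p lies at chr5:138165332-138165353 and miR-93-5p at chr5:138165574-138165596, both on the minus strand. MiR-92a-3p lies at chr14:115044476-115044496 on the plus strand. MiR-25-3p and miR-92a-3p share the seed AUUGCAC although their rows are on different chromosomes. Among the microRNA rows of the table, 7 have a mature strand with that seed, 4 of them had a count, and they summed to 61 counts. The seed of miR-93-5p, AAAGUGC, is that of the Mir17 family, with 6 rows in the table, 4 with a count and a sum of 28.

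The RNA behind these rows was total RNA purified on a column kit, and the deposited values are whole-number read counts per gene. Total counts were 32086649 in replicate 3, against 12418054 and 12021576 in replicates 1 and 2, a 2.67-fold range. A count of 0 allows up to 3 counts, which is 0.0935 CPM (counts per 1000000 counts of the library) in replicate 3, against 0.242 and 0.25 CPM in replicates 1 and 2. The pre-B markers Cd79a, Cd79b, Vpreb3, Il2ra, Rag1 and Ighm were detected in every library. Rag1, a subunit of the recombinase, stood at 401 ± 56.7 RPKM (CPM per kilobase of gene length). Il2ra, the CD25 chain of the sort gate, stood at 89.3 ± 17.7 RPKM. Each of the pre-B markers named had its lowest RPKM in replicate 3. All 7 neutrophil markers were detected too, at a summed 1333 CPM in replicate 3, against 774 and 931 CPM in replicates 1 and 2. Elane and Mpo, at 2.74 and 4.15 RPKM in replicate 3, lay between their values in replicates 1 and 2. The summed levels of 4 erythroid markers lay between 25.03 and 30.4 CPM and those of 4 T and NK cell markers between 27.1 and 31.8 CPM, where Lck held 1173 of 1634 counts and Cd3e and Cd3g held 19 and 15. Those of 4 stroma and endothelium markers lay between 227 and 329 CPM, where Pecam1 held 14130 of 14566 counts, Cdh5 310, Col1a1 122 and Cxcl12 4. Xist, the RNA that coats the inactive X chromosome, had 22609 counts in replicate 1, against 94 in replicate 2 and 70 in replicate 3. In this, replicate 1 stood apart from the others. Donor sex was not a factor in any test below, and the rows Mir421 and Mir374b lie on the X chromosome. In such bulk libraries, fewer cells of a type and less RNA per cell cannot be told apart.

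Few microRNA rows held reads. Of the 417 rows, 336 had 0 counts in all libraries, 56 had sums of 1 to 9 and 25 reached 10. The share that reached 10 was 5.995% of microRNA rows, against 55.0% of all rows of the table. MicroRNA rows are short, from 28 to 128 bases with a median of 83, while the median over all rows was 2035 bases. Of the 195 other rows within that range of lengths, 76 reached 10 counts, or 39.0%. The 25 rows themselves were 64 to 112 bases long, lay on 14 chromosomes and had hairpins of 31.2 to 63.1% G and C where a sequence was matched.

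The 25 rows took 0.0204% of the counts of replicate 3, 0.0216% of replicate 1 and 0.0193% of replicate 2. One row, Mir682, held 85.4% of these counts in replicate 3, against 82.9% and 82.4% in replicates 1 and 2. Without it the other 24 rows summed to 952 counts in replicate 3, against 458 and 408 in replicates 1 and 2. The median sum was 25 counts, 18 rows had fewer than 50 and 5 had at least 100. A count was present in every library for 24 rows, the exception being Mir684-2.

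Levels are given as RPKM, and as CPM where rows are compared with themselves. The median level of the 25 rows was 2.65 ± 0.10 on the log2(RPKM + 0.5) scale. The same median was 2.57 ± 0.02 for all 17423 rows with a count (SD, n = 3). The thresholds were unlike, a sum of at least 10 for the 25 rows and any count for all rows. The medians here and below are therefore not matched. On the log2(CPM + 0.5) scale, which leaves length out, the medians were 0.00 ± 0.11 for the 25 rows and 3.55 for all rows. Where a read that only touches a short row is counted for it, reads come from a stretch longer than the row. With 99 bases added to every length, as for an assumed read of 100 bases, the medians were 1.63 for the 25 rows and 2.48 for all rows. Each row's RPKM was 1.88 to 2.55 times as high with the deposited length as with the added bases. At least 1 RPKM was reached in every library by 21 of the 25 rows and at least 1 CPM by 5.

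**Figure D1:**
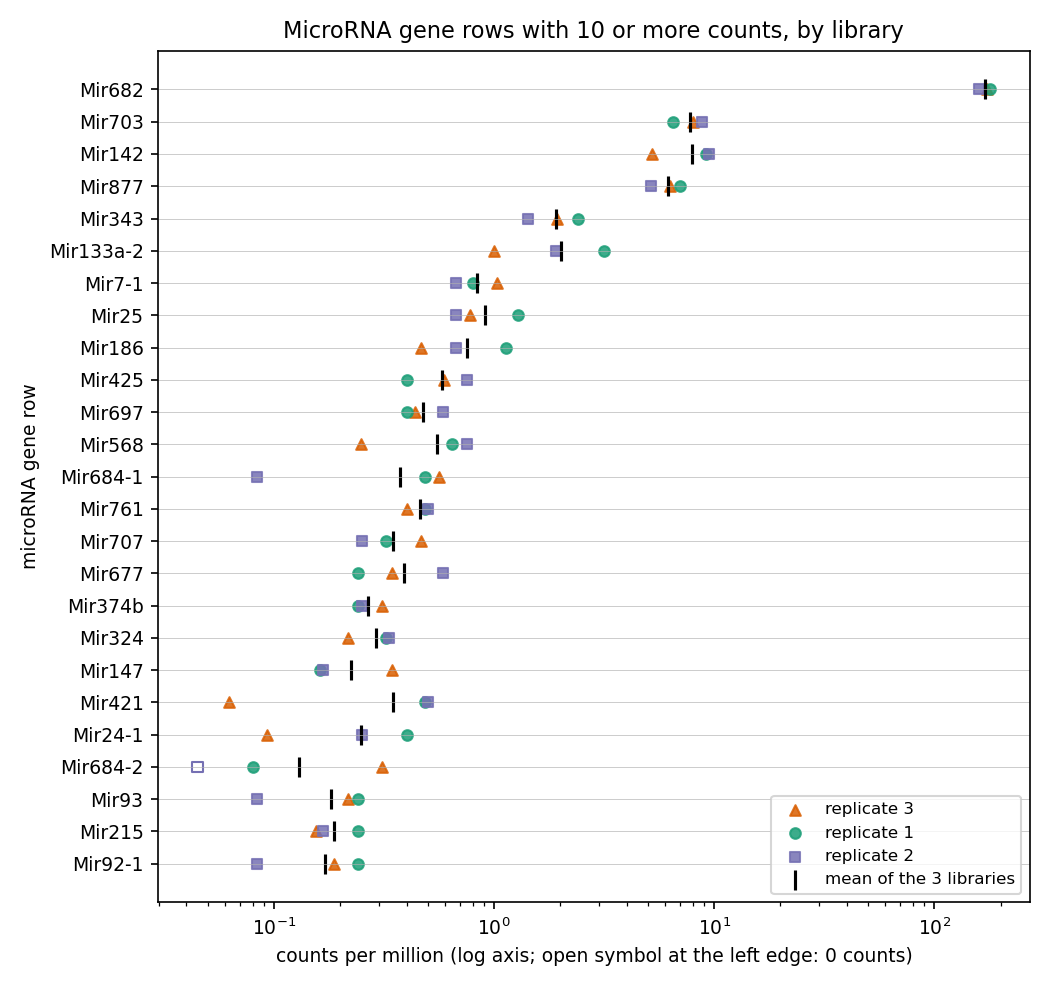
Level in CPM (log axis) of the 25 microRNA rows with 10 or more counts; each symbol is 1 of 3 libraries and the black tick is their mean. Mir682 sits near 171 CPM, 3 rows lie between 6 and 8 CPM, and Mir142 and Mir133a-2 have their lowest symbol in replicate 3.

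Mir682 (Entrez 751556) had the highest level of any microRNA row. It had 5578 counts in replicate 3, against 2227 and 1908 in replicates 1 and 2, or 173, 179 and 159 CPM. Its 1777 ± 108 RPKM (SD, n = 3) ranked 5 among all rows of the table, while its CPM ranked 1407, and with the added bases its RPKM ranked 22. Its hairpin of 96 bases lies at chr13:75645046-75645141 on the plus strand of GRCm38.p6, inside the exon of Gm4149, an annotated processed pseudogene. The hairpin is printed whole because nearly all of it is also found in the messenger RNA of Rpl37a, a protein of the large ribosomal subunit, and capitals mark the bases covered by shared words of 25 bases.
Mir682 hairpin: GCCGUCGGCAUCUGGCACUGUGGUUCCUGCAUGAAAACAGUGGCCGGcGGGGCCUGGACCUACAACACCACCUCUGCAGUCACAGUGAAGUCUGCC
The mature strand is bases 74 to 94 of this hairpin. Of its 72 words, 47 occur in Rpl37a, which covers 95 of the 96 bases. The remaining base is the substitution C48T, the hairpin's base first, counted from 1 at its 5′ end, then the base of Rpl37a. In all, 23 genes elsewhere in the genome share words with the hairpin on the same strand. They are 12 pseudogenes, 10 microRNA genes and 1 protein coding gene, Rpl37a. Each of the 10 microRNA genes shares as many words, over as many bases, as one of the pseudogenes. The 23 genes may therefore not be 23 separate copies, and their overlap with each other was not examined.

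The counts of Mir682 and Rpl37a did not keep one ratio between libraries. Rpl37a, chosen after its values were seen because of the shared words, had 412 counts in replicate 3, against 97 and 71 in replicates 1 and 2, or 15.0 ± 6.04 RPKM over 588 bases. Mir682 had 13.5 times as many counts as Rpl37a in replicate 3, 23.0 times in replicate 1 and 26.9 times in replicate 2. The Rpl37a row was low for its class: the median of 85 ribosomal protein rows was 73.4 RPKM, and 11 of them lay below it. The summed counts of Mir682 and Rpl37a over the length of Rpl37a would give 305 RPKM. This sum leaves out the pseudogene rows Gm14173 and Gm4613, whose shared words cover 89 and 77 of the 96 bases of the Mir682 hairpin. Gm14173 had 360 counts in replicate 3, against 108 and 94 in replicates 1 and 2. Gm4613 had 214, 22 and 20 counts in the same order. The sources used here do not give the treatment of reads that match several places, so the split of reads between Mir682, Rpl37a and the pseudogenes is uncertain.

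Mir703 (Entrez 735265) also shares most of its hairpin with a messenger RNA. It had 257 counts in replicate 3, against 81 and 105 in replicates 1 and 2, or 71.2 ± 10.4 RPKM. The annotation places it in an intron of Cfap299, on the opposite strand and 22624 bases from the nearest exon. The Cfap299 row had 0 counts in replicate 3, against 1 and 0 in replicates 1 and 2. Its hairpin shares 43 of 85 words, which cover 108 of 109 bases, with the messenger RNA of Eef1a1, the elongation factor that brings aminoacyl transfer RNA to the ribosome. Eef1a1, also chosen after its values were seen, had 52114 counts in replicate 3, against 21427 and 20546 in replicates 1 and 2. Mir703 counts came to 0.493% of those of Eef1a1 in replicate 3, against 0.378% and 0.511% in replicates 1 and 2. Apart from Mir24-1, which shares 4 of its 44 words with Mir24-2, the hairpins of the other 19 matched rows shared no word with a distant gene on the same strand.

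Mir142 (Entrez 387160), a microRNA gene active across blood cell lineages, was the highest row with no such shared words. It had 167 counts in replicate 3, against 114 and 113 in replicates 1 and 2. Its level was 5.19 CPM in replicate 3, against 9.18 and 9.43 CPM in replicates 1 and 2, and its mean was 124 ± 37.2 RPKM. Replicates 1 and 2 were close to each other and replicate 3 lay below both. The annotation places it in an intron of Mir142hg, 111 bases from an exon, and Mir142hg was not among the rows of the table. A microRNA gene on the opposite strand, Mir142b, covers the same 64 bases. The sources used here give no strand setting for the counting, so reads of the 2 strands cannot be told apart.

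The other rows known from lymphoid cells held few counts or none. Of a list of 22 microRNA genes of lymphoid cells, 21 were in the table and 9 of these had a count. In all, 12 had 0 and 2, Mir142 and Mir186, reached 10. Among all 417 microRNA rows, 336 had 0 and 25 reached 10. Mir150, which is known to limit Myb in B cells, had 1 count in replicate 3, against 1 and 0 in replicates 1 and 2. Mir181b-1, of a pair known for its role in early lymphocytes, had 2, 1 and 2 counts in the same order, while Mir181a-1 had 0 in all. Mir155, a microRNA of activated B cells, and Mir34a, which is known to limit Foxp1 in developing B cells, also had 0 in all libraries. These counts are of rows in this kind of library and do not measure the mature small RNA.

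Most rows known from other cells were at 0, as were most microRNA rows of the table. Of 24 such rows in the table, 4 had a count and 20 had 0, against 336 at 0 among all 417 microRNA rows. The rows at 0 included Mir223 of myeloid cells, Mir144 and Mir451a of red cells and Mir126a of endothelium. Mir133a-2 (Entrez 723954), a microRNA known from muscle, had 32 counts in replicate 3, against 39 and 23 in replicates 1 and 2. Its level was 0.994 CPM in replicate 3, against 3.14 and 1.92 CPM in replicates 1 and 2, with a mean of 19.4 ± 10.4 RPKM. Mir1a-1, the muscle microRNA made from the same primary transcript, had 1 count in replicate 3 and 0 in the others, and the other copy, Mir133a-1, had 0 in all. The annotation places Mir133a-2 outside any other gene. The remaining rows with a count were Mir199a-1, with 6 counts in replicate 3, against 2 and 0 in replicates 1 and 2, and Mir1a-2, with a sum of 1.

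The position of each row within other genes was read from the GENCODE M21 annotation of GRCm38. A gene on the same strand contains 21 of the 25 rows. Of these, 9 lie inside an exon, 2 cross an exon boundary, 8 lie in an intron and 2 lie in an intron that an annotated transcript retains. Mir703 and Mir684-1 lie in introns of genes on the opposite strand, and Mir133a-2 and Mir684-2 lie outside any other gene. For 17 rows the containing gene on the same strand is itself in the count table, as 15 different genes.

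Most rows stood below the gene that contains them. On the log2(RPKM + 0.5) scale, 13 of 17 rows were lower than the containing gene and 4 were higher (2 with the added bases), with a median difference of -2.05, row minus containing gene. The difference had the same sign in all libraries for 14 rows. The median difference was -0.95 for 6 rows inside an exon, -1.41 for 2 rows across a boundary, -2.40 for 7 rows in an intron and -3.76 for 2 rows in a retained intron. The ranges of these positions overlapped, from -1.79 to 1.23 inside exons and from -6.57 to 0.06 in introns. The sources used here do not say to which row a read went that overlaps both.

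**Figure D2:**
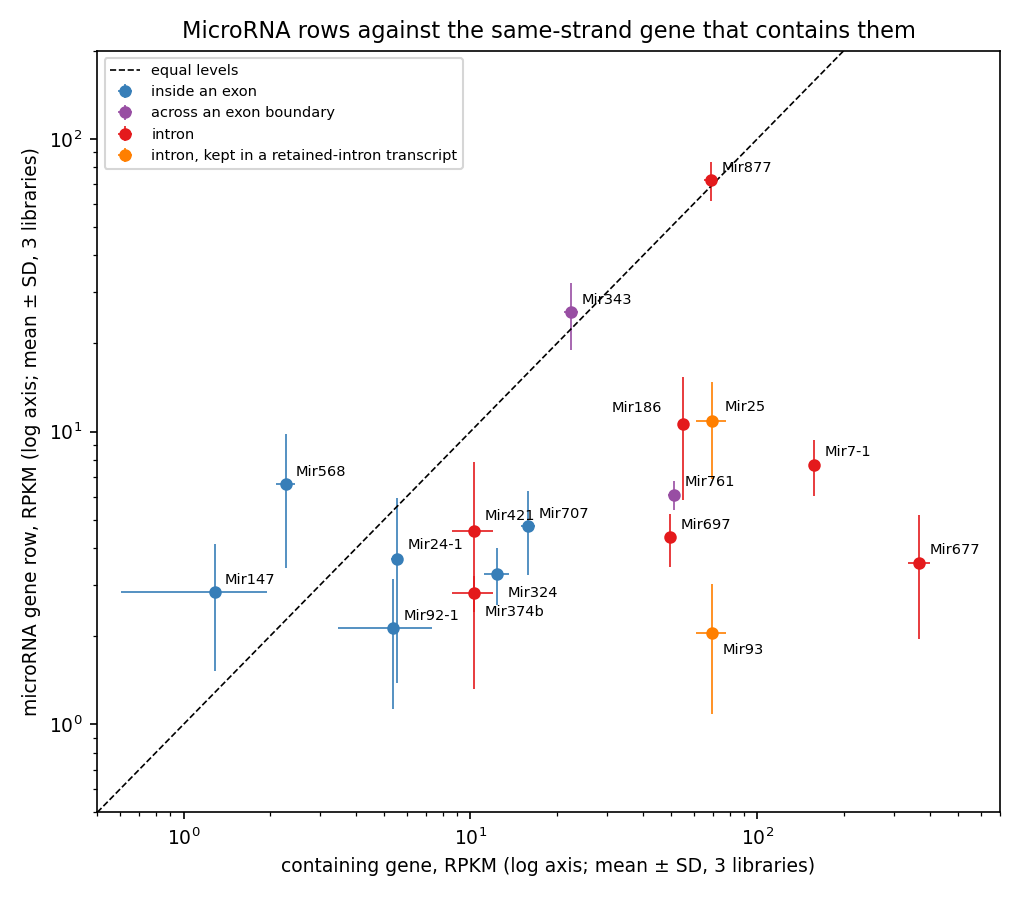
Mean level of 17 microRNA rows (vertical, RPKM, log axis) against that of the same-strand gene that contains them (horizontal, RPKM, log axis), with SD over 3 libraries and colour for position. With the deposited lengths, Mir568, Mir147, Mir343 and Mir877 alone lie above the dashed line of equal levels (with 99 bases added, Mir343 and Mir877 fall below it), and Mir677 in Atp5b lies furthest below it.

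Mir877 (Entrez 100124459) had about the level of its host over the deposited lengths. It is a mirtron: its hairpin of 85 bases fills an intron of Abcf1, a translation factor of the ABC protein family, with 0 bases left on either side, so splicing takes the place of the Drosha cut. Its mature strands lie at chr17:35960795-35960814 and chr17:35960731-35960752 on the minus strand. It had 202 counts in replicate 3, against 87 and 62 in replicates 1 and 2, or 72.4 ± 10.9 RPKM, against 68.95 ± 4.02 RPKM for Abcf1. The difference was 0.06 ± 0.16 and its sign differed between libraries. With 99 bases added to both lengths the ratio of Mir877 to Abcf1 was 0.5, against 1.05 with the deposited lengths. Reads of spliced or unspliced Abcf1 that reach into the intron or end at its border were not separated here.

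Mir343 (Entrez 100124438), over the deposited lengths, also had about the level of its host, Ercc2, a helicase of DNA repair and transcription. It had 62 counts in replicate 3, against 30 and 17 in replicates 1 and 2. Its mean was 25.6 ± 6.65 RPKM, against 22.5 ± 1.27 RPKM for Ercc2, and 11 of its 75 bases lie in an exon of Ercc2. The difference was 0.15 ± 0.31, and with 99 bases added to both lengths it was -0.98. Mir568 and Mir147, both inside exons, were the rows furthest above their hosts. Mir568 had 8 counts in replicate 3, against 8 and 9 in replicates 1 and 2, and exceeded Zbtb20, a zinc finger repressor, by 1.23 ± 0.87. Mir147 had 11, 2 and 2 counts in the same order and exceeded AA467197 by 0.92 ± 0.58. With the added bases these differences were 0.28 for Mir568 and 0.15 for Mir147. Both hosts were low, at 2.27 ± 0.17 RPKM for Zbtb20 and 1.28 ± 0.68 RPKM for AA467197.

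Apart from Mir877, the rows in introns of highly expressed genes stood far below them. Mir677 had 11 counts in replicate 3, against 3 and 7 in replicates 1 and 2, while Atp5b, the beta subunit of the mitochondrial ATP synthase, had 23780, 8794 and 7465. The difference was -6.57 ± 0.67, the lowest of the 17. Mir7-1 had 33, 10 and 8 counts in the same order and lay below Hnrnpk, an RNA binding protein, by a difference of -4.29 ± 0.33. Mir697, in Sf3a3, a spliceosome subunit, differed from it by -3.38 ± 0.24 and Mir186, in the splicing factor gene Zranb2, by -2.40 ± 0.58. These rows lie 73, 302, 267 and 614 bases from the nearest exon, in the order Mir677, Mir7-1, Mir697 and Mir186. Mir186 had 15 counts in replicate 3, against 14 and 8 in replicates 1 and 2, so its level in replicate 3 was the lowest of the libraries.

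The remaining hosted rows had few counts and lay between these. Mir761, with 42 of 76 bases in an exon of the peptidase gene Nrd1, had 13 counts in replicate 3, against 6 and 6 in replicates 1 and 2, and differed from its host by -2.98 ± 0.09. Mir707, in an exon of Akt1s1, a regulator of mTORC1, differed from it by -1.68 ± 0.48, and Mir324, in an exon of the Wnt pathway gene Dvl2, by -1.79 ± 0.43. Mir24-1, in an exon of the aminopeptidase gene Aopep, differed from it by -0.71 ± 0.97, a spread larger than the difference. Mir421 and Mir374b lie in introns of Ftx, a long noncoding RNA of the X inactivation centre, and differed from it by -1.42 ± 1.19 and -1.70 ± 0.39. Mir215 and Mir425 lie in exons of noncoding genes that were not rows of the table.

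Rows of known clusters, which share a primary transcript, mostly held few counts or none. Of 55 rows in 21 clusters, 31 had 0 counts and 5 rows in 4 clusters reached 10. The same counts over all 417 microRNA rows were 336 with 0 and 25 that reached 10. In the Mir106b cluster, in introns of Mcm7, a subunit of the replicative helicase, Mir25 (Entrez 723926) had 25 counts in replicate 3, against 16 and 8 in replicates 1 and 2. Its neighbour Mir93 had 7, 3 and 1 counts in the same order, and Mir106b had 6, 3 and 0. Mir25 stood at 10.8 ± 3.95 RPKM and Mir93 at 2.05 ± 0.97 RPKM, against 69.5 ± 8.33 RPKM for Mcm7. Mir25 was above Mir93 in every library.

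The Mir17 cluster, known to sustain the survival of early B cells, held few reads in any of its 6 rows. Mir92-1 had 6 counts in replicate 3, against 3 and 1 in replicates 1 and 2, and reached the threshold with a sum of 10. Mir17, Mir18, Mir19a, Mir20a and Mir19b-1 had between 0 and 4 counts in each library. The host transcript Mir17hg had 238 counts in replicate 3, against 186 and 185 in replicates 1 and 2, or 5.39 ± 1.93 RPKM. Mir92-1 lies in an exon of Mir17hg and differed from it by -1.18 ± 0.93.

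In the other clusters with a row of 10 counts, 1 row held most of the summed reads, though not within replicate 3 for the Mir23b cluster. Mir425 had 19 counts in replicate 3, against 5 and 9 in replicates 1 and 2, while its neighbour Mir191 had 1, 1 and 0 in the same order. Mir24-1 had 3, 5 and 3 counts, Mir23b 3, 0 and 0 and Mir27b 3, 0 and 1. The mature strand miR-24-3p can also come from Mir24-2, which had a sum of 3 counts.

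**Figure D3:**
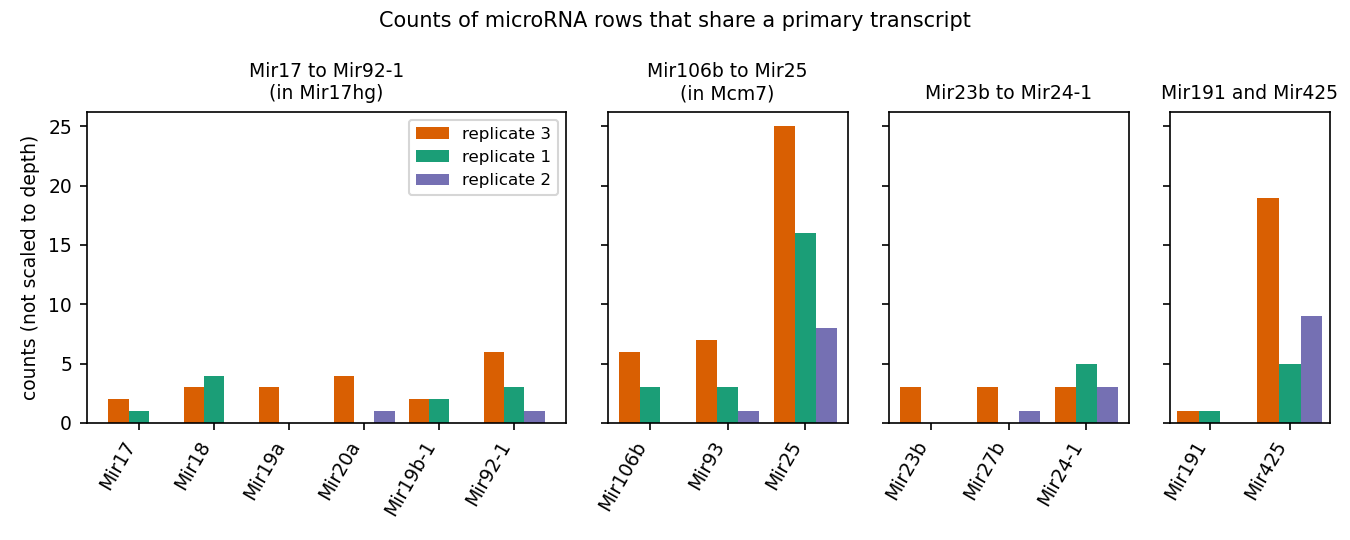
Counts, not scaled to depth, of the microRNA rows in the 4 clusters that hold a row with 10 or more counts; bars are the 3 libraries. Mir25 and Mir425 have the tallest bars of their clusters in every library, while the 6 rows of the Mir17 cluster stay at 6 counts or fewer.

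The threshold of 10 counts fell in a dense stretch of values. Just inside it lay Mir24-1, Mir93 and Mir684-2, each with a sum of 11, and Mir215 and Mir92-1, each with a sum of 10. Just outside it lay Mir140 and Mir106b, each with a sum of 9, and Mir199a-1, with 8. Mir140 had 2 counts in replicate 3, against 5 and 2 in replicates 1 and 2. Mean levels inside this margin were 1.52 to 3.66 RPKM, and outside it 1.65 to 3.01 RPKM.

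The spread between libraries was then compared with counting noise. A chi-square test of Poisson counts, Benjamini-Hochberg adjusted over the 12147 rows that passed the filter on low counts, called 54.6% of those rows. Of the 25 microRNA rows, 6 passed the filter and 3 of these were called: Mir142 (adjusted p = 2.6e-07), Mir133a-2 (adjusted p = 1.3e-05) and Mir682 (adjusted p = 0.00124). Mir703 (adjusted p = 0.185), Mir877 (adjusted p = 0.256) and Mir343 (adjusted p = 0.28) were not. Over all 17423 rows with a count, where 38.7% were called, 4 of 25 were called, the addition being Mir421 (adjusted p = 0.0181). Without replicate 3 the test called 3145 of 12217 rows (25.7%), and Mir682 was the only one of 6 microRNA rows called, with an adjusted p of 0.915 for Mir142 and 0.163 for Mir133a-2. Without replicate 2 it called 4254 of 12954 rows (32.8%) and 3 of 10 microRNA rows, where Mir186 (adjusted p = 0.0443) stood in place of Mir682 (adjusted p = 0.323). Without replicate 1, the library that stood apart in Xist, it called 5590 of 12918 rows (43.3%), and the adjusted p was 4.6e-06 for Mir142, 0.0361 for Mir133a-2 and 0.00315 for Mir682.

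Set against the variability of genes of like abundance, no microRNA row was called. The edgeR quasi-likelihood test of variability, Benjamini-Hochberg adjusted, called 2 of 12147 rows (0.0165%) and 0 of the 6 microRNA rows, with 1 of the 6 at an unadjusted p under 0.05, against 644 of all 12147 rows (5.3%). Over all rows with a count it called 47 (0.27%), and 0 of the 25 microRNA rows. The robust fit called 0 of all 12147 rows, the 6 among them.

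Replicate 3 was set against replicates 1 and 2 because the labels give another version of the Illumina CASAVA software for it, 1.8.0 against 1.8.2. It compares libraries and not conditions, with 1 library on one side. The edgeR quasi-likelihood test, Benjamini-Hochberg adjusted, called 9 of 12147 rows (0.0741%), of which 7 were higher (0.0576%) and 2 lower (0.0165%) in replicate 3. None of the 6 microRNA rows was called. Of the 6, 2 had an unadjusted p under 0.05, against 1169 of all 12147 rows (9.62%). DESeq2 called 36 rows (0.296%) and 0 of the 6, with 0 of these at an unadjusted p under 0.05. Over all rows with a count the edgeR test called 0 rows and 0 of the 25, and an unadjusted p under 0.05 was found for 3 of the 25, against 1224 of all 17423 rows (7.03%). The 3 were lower in replicate 3, as were 502 of all rows (2.88%). The median log2 fold of the 25 rows was 0.02, as was that of all rows, and 13 rows lay above 0 and 12 below.

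The 3 rows with an unadjusted p under 0.05 were Mir142, Mir133a-2 and Mir421. Mir142 had 5.19 CPM in replicate 3 (exact Poisson 95% interval 4.43 to 6.04), against 9.18 (7.57 to 11.03) in replicate 1 and 9.43 (7.77 to 11.3) in replicate 2, and the interval of replicate 3 overlaps neither of the others. Its log2 fold was -0.84 (SE 0.25) in the fit over filtered rows and -0.83 in that over all rows with a count, and it was called in neither. Mir133a-2 had 0.994 CPM in replicate 3 (interval 0.68 to 1.4), against 3.14 (2.23 to 4.29) in replicate 1 and 1.92 (1.22 to 2.88) in replicate 2, and the intervals of replicates 3 and 2 overlap. Its log2 fold was -1.34 (SE 0.41) in the fit over filtered rows and -1.33 in that over all rows with a count, and it was called in neither. Without replicate 1 the fold was -0.95, a value with no test. Mir421 had 2 counts in replicate 3, against 6 in replicate 1 and 6 in replicate 2, a ratio of CPM of 0.126 (exact binomial 95% interval 0.0137 to 0.568). Intervals cover counting error only. The summed neutrophil markers were higher in replicate 3, though Elane and Mpo were not, and the named pre-B markers were lower, as given above. The part of either in these differences was not tested.

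Across the 25 rows, the ratio of replicate 3 to replicates 1 and 2 pooled had a counting interval that excluded 1 in 5 rows. Over all rows with a count the same interval excluded 1 for 38.2%, with 19.2% below and 19% above. Among the 25 it was below 1 for Mir142, Mir133a-2, Mir568 and Mir421 and above 1 for Mir684-2, which had 10 counts in replicate 3, against 1 in replicate 1 and 0 in replicate 2. For Mir682 the ratio was 1.02 (0.982 to 1.07), for Mir703 1.05 (0.864 to 1.27) and for Mir877 1.03 (0.828 to 1.28). For a row with 10 counts the interval was wide, as for Mir92-1 at 1.14 (0.27 to 5.48).

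Host genes and their rows were read side by side in this comparison. The values of Mir17hg, Ftx, Rpl37a and Mir682 are from the fit over filtered rows. Mir92-1, Mir421 and Mir374b did not pass the filter, so theirs are from the fit over all rows with a count. In that second fit the log2 fold was -1.03 for Mir17hg and -0.36 for Ftx. Mir17hg had a log2 fold of -1.04 (SE 0.22, edgeR quasi-likelihood adjusted p = 0.247), with 7.39 CPM in replicate 3, against 15.0 CPM in replicate 1 and 15.4 CPM in replicate 2. Mir92-1, in its exon, had a fold of 0.19 with an SE of 0.98, too wide to tell it from that of the host. Ftx had a log2 fold of -0.38 (SE 0.14, edgeR quasi-likelihood adjusted p = 0.453), while Mir421 stood at -2.84 (SE 0.86) and Mir374b at 0.34 (SE 0.72). Rpl37a stood at 0.90 (SE 0.25, edgeR quasi-likelihood adjusted p = 0.365) and Mir682, which shares its sequence, at 0.03 (SE 0.13).

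**Figure D4:**
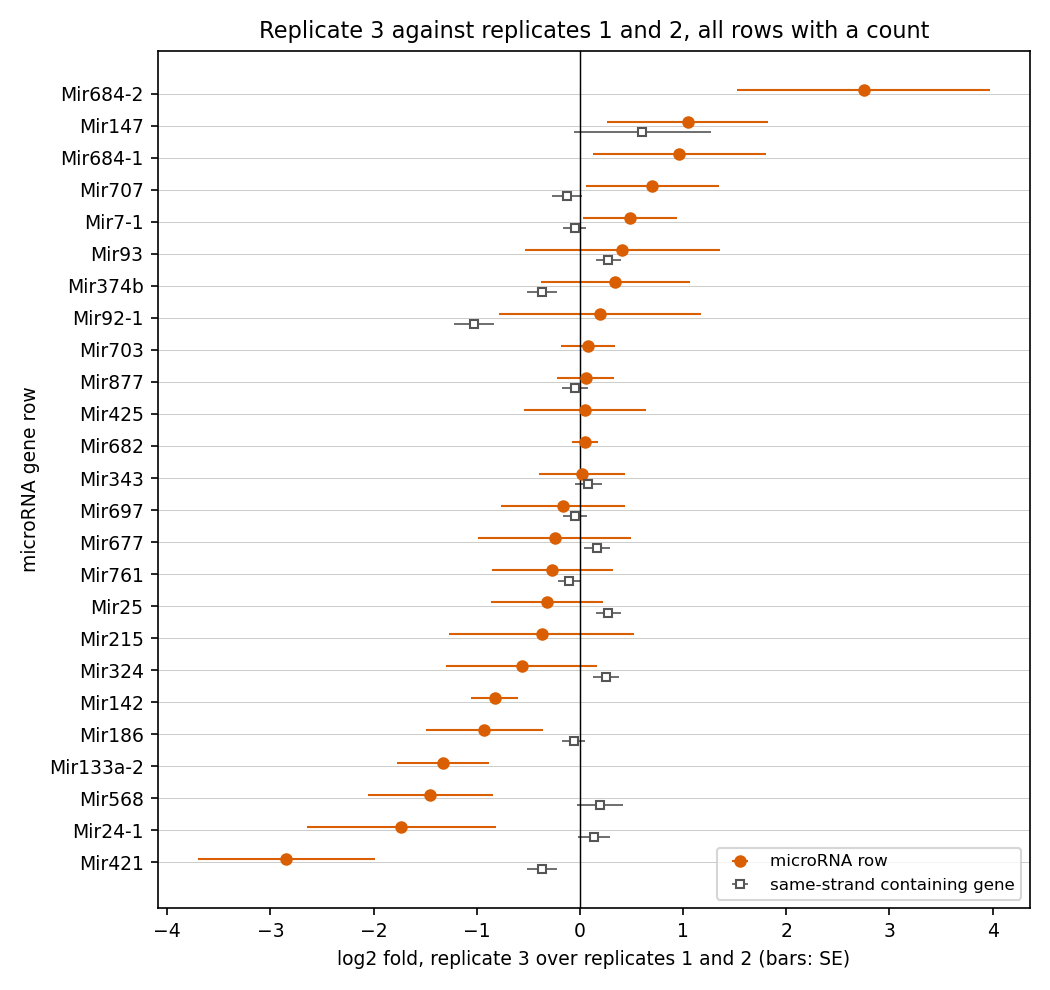
Log2 fold of replicate 3 over replicates 1 and 2, with SE, for the 25 microRNA rows (orange circles) and, where it is in the table, the same-strand gene that contains them (open squares), from the fit over all rows with a count. The bars of rows with few counts are several times as long as those of the containing genes, and Mir421 and Mir684-2 lie at the ends.

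The genes that make microRNAs were all measured in these libraries. All 15 genes of the pathway list had counts, and 0 of 15 were called in the comparison of replicate 3 with replicates 1 and 2, where 0.0741% of all rows were. Drosha stood at 10.8 ± 1.35 RPKM, its partner Dgcr8 at 23.9 ± 2.39 RPKM, the export factor Xpo5 at 22.4 ± 0.46 RPKM and Dicer1 at 21.4 ± 1.34 RPKM. Ago1 was the highest of the 4 Argonaute genes, at 35.2 ± 2.90 RPKM, and Ago3 the lowest, at 3.69 ± 0.36 RPKM. The RNA helicases Ddx5, at 418 ± 26.4 RPKM, and Ddx17, at 166 ± 9.94 RPKM, which work with Drosha and in other steps of RNA processing, led the list.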

How the data were processed

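Raw counts of reads per Entrez gene were deposited by the authors with a gene length for 3 libraries of 1 group. Per the submitters' processing notes, reads were summarised with featureCounts on mm9, and CASAVA was used, in version 1.8.0 for replicate 3 and 1.8.2 for replicates 1 and 2, per the labels. The sources used here do not give the aligner, the annotation, the strand setting, the read length or the treatment of reads with several matches. Positions and symbols come from GENCODE M21 and RefSeq on GRCm38, which is not the build of the files, and 24176 of 26286 identifiers had a match. RPKM, CPM and log2 values were computed here from the authors' counts and lengths with TMM-scaled library sizes (edgeR 4.0.16, limma 3.58.1, R 4.3.3). The filter on low counts was filterByExpr, and each fit ran over all rows that passed, or over all rows with a count where said. DESeq2 1.42.0 was an alternative. Adjustment was by Benjamini-Hochberg over all rows tested, and calls were made under 0.05. Words of 25 bases shared between hairpins and GENCODE transcripts were counted in Python 3.11.15, and figures drawn with matplotlib 3.10.9. Depth ranged from 12021576 to 32086649 counts, so replicate 3 has the least counting error.

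The microRNA rows and gene lists were chosen with earlier results of these data known. Named rows are those with the highest levels, those called in a test, cluster and lymphoid list rows, rows near the threshold and their containing genes; remaining rows are named for completeness. Each test was tried on simulated counts with known answers. Alternatives were other scalings, pseudocounts, lengths, count thresholds, all rows in place of the filter, a robust fit and leaving out each replicate. One marker of the pre-B list is not reported here.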

Additional observations from a re-analysis of the deposited data

How the results depend on the processing

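The number of rows depends on the count threshold: 25 rows at a sum of 10 became 16 at 20 and 10 at 30. The median level of 2.65 became 1.63 with 99 bases added to each length and 2.76 with a pseudocount of 1, and lay between 2.61 and 2.71 when each replicate was left out. The median difference from the containing gene of -2.05 became -2.87 with the added bases and -6.36 with CPM, and lay between -2.20 and -1.94 when each replicate was left out. With the added bases, 2 rows in place of 4 stood above their containing gene, since Mir343 and Mir877 changed sign. The Poisson test called between 1 and 3 of these rows when each replicate was left out, while its calls over all rows lay between 3145 and 5590, against 6627 with all replicates. The variability test called 0 of these rows under every alternative run, while its calls over all rows lay between 0 and 47. The comparison of replicate 3, with 1 library on one side, called hardly any row of the table under any alternative, and none of these rows. Leaving out replicate 1 or 2 in the comparison of replicate 3 gave values with no test. Depth limits the low rows: with 18 of 25 below 50 counts, only large differences could be detected. No paired analysis was possible because all libraries belong to 1 group.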
